A study of Homo sapiens with 12 samples.

Results

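The 51 genes described here build and run the machinery of DNA replication, and all 51 were found by symbol among the 17085 genes of the count table. They were taken from a list that holds 5 origin licensing genes, the 6 subunits of the MCM2-7 helicase, 6 helicase activation genes, 9 DNA polymerase and primase genes, 7 sliding clamp and clamp loader genes, the 3 RPA subunits, 4 genes for Okazaki fragment processing, 4 genes for nucleotide supply, 2 fork protection genes, 3 genes for chromatin assembly and histone mRNA, and 2 genes for S phase repair and chromatin. The RNA came from 786-O, a long-established line of human clear cell renal carcinoma, and was sequenced as 3 libraries for each of 4 groups. The cells received DMSO as vehicle, 5 µM everolimus, which inhibits mTOR complex 1, 1.5 µM SGI-1027, which inhibits DNA methyltransferases, or both compounds together, in each case for 24 h. All libraries share 1 cell line, labelled wild type, and separate cultures for the 3 libraries of a group are not stated in the labels, so the p-values measure only the spread between these samples, which may be technical. The per-sample labels and the study's methods give 5 µM everolimus for the single-drug group, whereas the treatment protocol gives 10 µM for that group and 5 µM in the combination. If 10 µM was used, the comparisons of the combination with everolimus and with the sum of the single drugs are not matched for dose.

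Replication starts with licensing, in which the origin recognition complex, CDC6 and CDT1 load the MCM2-7 ring onto DNA in G1. At the start of S phase MCM10, CDC45 and the GINS complex turn the ring into a moving helicase, and primase, the replicative polymerases, the PCNA clamp and its RFC loaders copy the strands behind it. Most of these genes are transcribed in late G1 and S phase under E2F factors, which makes their RNA a common readout of how many cells are preparing for or passing through S phase. In bulk RNA, fewer cells in S phase and less of these transcripts per cell cannot be told apart.

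Libraries held between 37046231 and 41516976 counts, and the tumour cell markers KRT8, VIM and PAX8 were well expressed, whereas the leukocyte markers PTPRC and CD3E had at most 1 count in any DMSO library. Counts of replicate libraries differed beyond sampling noise in every group, and chi-square per gene reached 16.4 between SGI-1027 replicates 1 and 3 and 12.9 between DMSO replicates 1 and 3, against 3.04 to 5.46 for the pairs that held neither SGI-1027 replicate 3 nor DMSO replicate 1. Values are counts scaled to CPM after TMM normalization, and changes are log2 differences from edgeR's quasi-likelihood fit of all 12 libraries, with standard errors and p-values adjusted by Benjamini-Hochberg over the 12841 genes tested. A gene is called where its adjusted p is under 0.05, and where 3 log2 changes follow each other they stand for everolimus, SGI-1027 and the combination, each against DMSO. All 51 genes passed the filter on low counts, with between 301 and 18135 counts in a library.

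In DMSO, the 51 genes together took between 0.495% and 0.501% of all counts. Their share lay between 0.359% and 0.363% with everolimus, between 0.358% and 0.363% with SGI-1027, and between 0.379% and 0.391% with the combination. The 3 treated groups thus lay below DMSO without overlap, and the combination lay above both single drugs. Per length, the most abundant transcript in DMSO was TYMS, thymidylate synthase, at 199 ± 3.74 FPKM (SD, n = 3), a unit that scales counts by gene length and library total. It was followed by the sliding clamp PCNA at 130.04 ± 6.06 FPKM and thymidine kinase TK1 at 124 ± 2.5 FPKM, and the last 2 did not differ beyond their spread. The lowest per length was RFC3, a clamp loader subunit, at 1.82 ± 0.16 FPKM. That rank rests on the gene length used, because RFC3 stood at 20.5 CPM in DMSO. By CPM the lowest was POLE2, at 9.02.

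**Figure D1:**
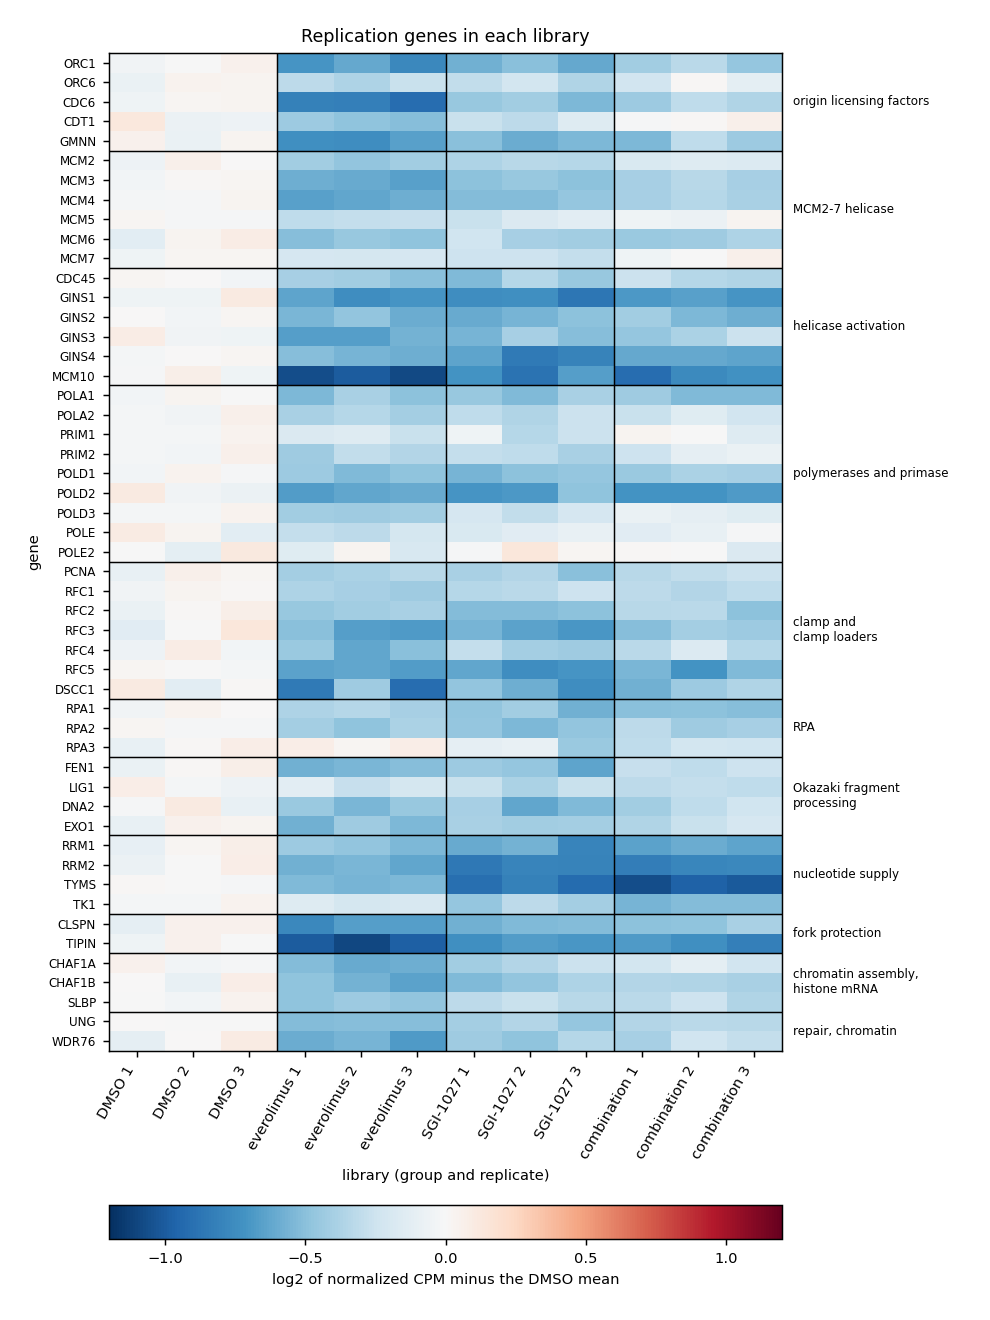
Log2 of normalized CPM minus the mean log2 of the DMSO libraries, for the 51 replication genes (rows, ordered by sub-group) in the 12 libraries (columns); blue is lower and red is higher than DMSO. The treated libraries are blue in nearly every row, darkest for MCM10 and TIPIN under everolimus and for TYMS under the combination, while CDT1, MCM5 and MCM7 are close to white under the combination.

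With everolimus, 49 of the 51 genes were lower than in DMSO and 0 were higher. Of all tested genes, 29.2% were called lower and 27.2% higher in that comparison. The median log2 change of the 51 genes was -0.49, beside 0.0013 over all tested genes, and 2 genes fell by a log2 value of at least 1, MCM10 and TIPIN, as did 0.833% of all tested genes. The genes that were not called were POLE2, a subunit of DNA polymerase epsilon, at -0.10 ± 0.10 (SE), and RPA3, the smallest RPA subunit, at 0.06 ± 0.08. For the count of 0 genes higher, an unadjusted p under 0.05, DESeq2 and limma also gave 0. With upper-quartile factors in place of TMM, 48 genes were lower and 0 higher, and the split over all genes moved to 22.6% lower and 34.9% higher. The call of PRIM1 (log2 change -0.20 ± 0.08) was lost when any 1 of 4 libraries was left out, DMSO replicate 2 or 3 or everolimus replicate 1 or 3, with an adjusted p of up to 0.126.

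With SGI-1027, 50 of the 51 genes were lower and 0 higher, beside 30.6% and 32% of all tested genes. The median log2 change was -0.46, beside 0.017 over all genes, and 0 members reached a log2 fall of 1, which 1.04% of all tested genes did. POLE2 was the gene not called, at 0.05 ± 0.09. The 3 deepest falls were those of TYMS (-0.88 ± 0.04), the ribonucleotide reductase subunit RRM2 (-0.82 ± 0.04) and the GINS subunit GINS1 (-0.79 ± 0.06). An unadjusted p under 0.05, DESeq2 and limma gave 0 genes higher as well. Without SGI-1027 replicate 3, 48 genes were lower. Calls that ended without 1 library were those of POLE (-0.14 ± 0.05, adjusted p up to 0.153), lost without DMSO replicate 1 or 2 or SGI-1027 replicate 1 or 2, PRIM1 (up to 0.121), lost without DMSO replicate 3 or SGI-1027 replicate 2 or 3, and RPA3 (up to 0.174), lost without DMSO replicate 2 or 3 or SGI-1027 replicate 3.

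With the combination, 42 of the 51 genes were lower and 0 higher than in DMSO, beside 33.4% and 32.8% of all tested genes. The median log2 change was -0.37, beside 0.0074 over all genes. TYMS alone fell by a log2 value of at least 1, which 2.65% of all tested genes did. The 9 genes not called were ORC6 and CDT1 of the licensing genes, MCM5 and MCM7 of the helicase, and PRIM1, PRIM2, POLD3, POLE and POLE2 of the polymerases and primase. Of these, PRIM2 and POLD3 had an unadjusted p under 0.05. An unadjusted p under 0.05, DESeq2 and limma all gave 0 genes higher. The 3 comparisons share their DMSO libraries, so their counts are not independent of each other. Without DMSO replicate 1 the counts of genes lower were 49 with everolimus, 49 with SGI-1027, and 42 for both drugs. In medians over the 51 genes, the level was 71.4% of DMSO with everolimus, 72.9% with SGI-1027, and 77.5% for both drugs.

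**Figure D2:**
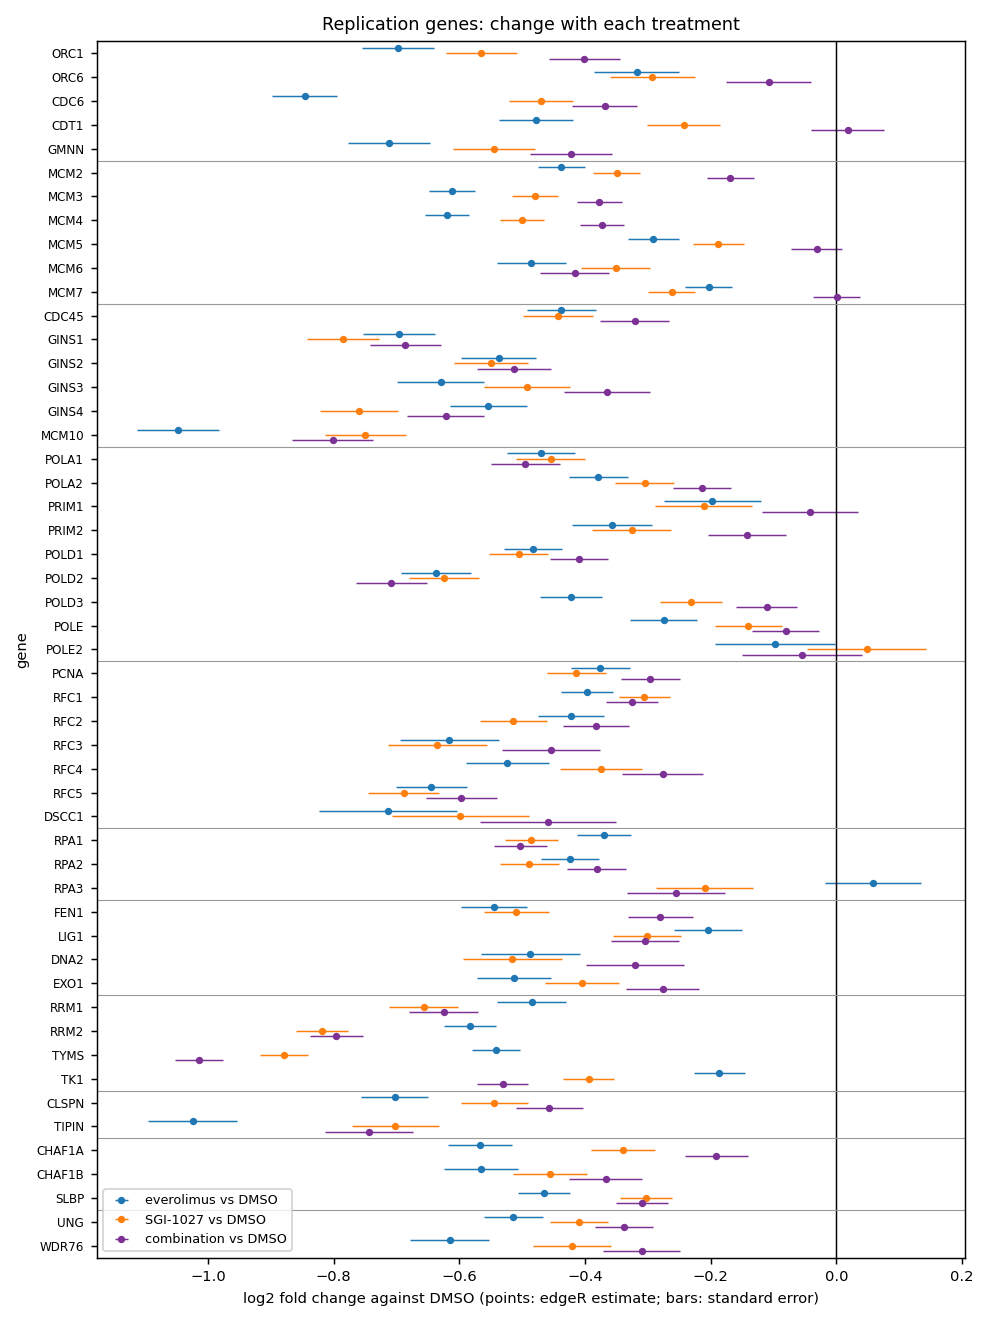
Log2 fold change against DMSO (x axis) of the 51 replication genes (y axis, ordered by sub-group) with everolimus (blue), SGI-1027 (orange) and the combination (purple); points are edgeR estimates and bars are standard errors. For 41 of the 51 genes the purple point lies to the right of the blue one, and TYMS, TK1 and RPA3 lie furthest the other way.

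The starts of the genes with the deepest falls under the combination are shown with 1 gene per sub-group, because replication genes are known targets of E2F factors and moved together here. Sequences are from RefSeq on GRCh38.p14, run 5′ to 3′ on the strand of the gene from 220 bases before to 30 bases after its start, and carry in capitals any of the E2F words listed after them, or the same word read on the other strand. TIPIN has 2 start sites in the table, of which the first is shown, and the window of the other holds 2 of these words. CDC6 and MCM3 were added after their values were seen, as members with 2 such words each.
TYMS (chr18:657433-657682, plus strand): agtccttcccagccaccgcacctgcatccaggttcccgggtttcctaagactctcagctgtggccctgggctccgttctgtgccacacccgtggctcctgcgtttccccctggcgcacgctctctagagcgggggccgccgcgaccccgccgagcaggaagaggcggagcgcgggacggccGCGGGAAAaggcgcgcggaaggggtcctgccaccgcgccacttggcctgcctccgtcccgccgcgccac
MCM10 (chr10:13161338-13161587, plus strand): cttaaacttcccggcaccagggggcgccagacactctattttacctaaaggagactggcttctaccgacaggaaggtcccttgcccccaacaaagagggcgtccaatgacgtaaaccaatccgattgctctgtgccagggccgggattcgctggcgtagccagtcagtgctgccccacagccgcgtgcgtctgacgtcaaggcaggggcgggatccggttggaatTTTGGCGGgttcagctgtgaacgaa
TIPIN (chr15:66386688-66386937, minus strand): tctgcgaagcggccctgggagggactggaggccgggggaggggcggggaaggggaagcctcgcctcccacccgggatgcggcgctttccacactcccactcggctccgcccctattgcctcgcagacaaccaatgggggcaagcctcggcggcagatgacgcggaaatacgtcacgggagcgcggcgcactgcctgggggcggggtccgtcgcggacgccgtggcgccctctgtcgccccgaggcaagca
POLD2 (chr7:44123519-44123768, minus strand): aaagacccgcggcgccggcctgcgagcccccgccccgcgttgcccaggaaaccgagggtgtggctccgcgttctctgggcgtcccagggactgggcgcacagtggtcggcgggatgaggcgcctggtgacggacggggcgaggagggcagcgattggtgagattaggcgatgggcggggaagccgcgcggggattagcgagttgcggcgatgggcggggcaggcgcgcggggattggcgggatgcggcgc
RFC5 (chr12:118016483-118016732, plus strand): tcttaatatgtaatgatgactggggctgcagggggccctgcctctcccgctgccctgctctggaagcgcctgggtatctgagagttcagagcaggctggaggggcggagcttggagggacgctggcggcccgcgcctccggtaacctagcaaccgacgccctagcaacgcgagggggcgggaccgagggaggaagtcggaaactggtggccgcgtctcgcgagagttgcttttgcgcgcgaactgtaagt
CDC6 (chr17:40287659-40287908, plus strand): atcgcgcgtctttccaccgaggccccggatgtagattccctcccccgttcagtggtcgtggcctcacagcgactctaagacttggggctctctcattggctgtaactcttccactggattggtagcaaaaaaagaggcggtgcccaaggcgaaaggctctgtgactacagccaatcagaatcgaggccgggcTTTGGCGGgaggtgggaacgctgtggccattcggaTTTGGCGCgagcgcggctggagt
MCM3 (chr6:52284713-52284962, minus strand): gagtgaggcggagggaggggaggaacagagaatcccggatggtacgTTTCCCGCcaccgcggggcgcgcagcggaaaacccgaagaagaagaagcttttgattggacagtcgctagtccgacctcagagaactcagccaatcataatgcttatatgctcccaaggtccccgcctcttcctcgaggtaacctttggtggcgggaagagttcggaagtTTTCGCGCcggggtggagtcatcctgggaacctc
TYMS and MCM10 carry 1 word each in this stretch, and TIPIN, POLD2 and RFC5 carry none. The words searched, on both strands and in windows from 250 bases before to 50 bases after a start, were TTTGGCGG, TTTGGCGC, TTTGCCGG, TTTGCCGC, TTTCGCGG, TTTCGCGC, TTTCCCGG and TTTCCCGC. Of the 42 members with a window in the table, 26 (61.9%) held at least 1 of them, beside 12.5% of the 10378 tested genes with a window. At the level of single windows the words stood in 6.19% of all 35116. The word CCAAT, which can share at most 1 base with an E2F word, was held by 61.9% of the 42 members and 43.5% of tested genes. The words TTTGAA and TTCGAA, the cell cycle homology element of many G2/M promoters, share no base with them and were held by 7.14% of members and 15.6% of tested genes. The median log2 change with the combination was -0.35 for the 26 genes with an E2F word and -0.39 for the 16 genes without, and the medians with everolimus were -0.51 and -0.48, so the 2 sets were close to each other. A match describes letters in a window and is not evidence of binding, and MCM4, MCM5, RPA2, RPA3, GINS4, POLD3, DNA2, DSCC1 and WDR76 were not matched.

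Licensing genes had the largest median rise from everolimus to the combination of the 11 sub-groups, 0.30 on the log2 scale. All 5 were lower with each single drug, and the median log2 change was -0.70 for everolimus, -0.47 for SGI-1027, and -0.37 for both drugs. CDC6, which helps load the MCM ring, was at 61.1, 64.6 and 64.9 CPM in the DMSO libraries, 36.2, 36 and 33.8 with everolimus, 46.4, 47.4 and 43.7 under SGI-1027, and 46.9, 51.3 and 49.3 under the combination. Its everolimus libraries were the lowest of all, and its combination libraries stood above them but below DMSO. The log2 change against DMSO was -0.85 ± 0.05 (adjusted p = 3.02e-10) for everolimus, -0.47 ± 0.05 (adjusted p = 3.13e-07) for SGI-1027, and -0.37 ± 0.05 (adjusted p = 4.69e-06) when both were given. ORC1, the largest subunit of the origin recognition complex, was at 42.2, 43.4 and 45.1 CPM in the DMSO libraries, 26.7, 28.4 and 25.5 with everolimus, 29.2, 30.7 and 28.5 under SGI-1027, and 32.5, 34.8 and 31.6 under the combination. The same order held, with everolimus lowest and the combination between the single drugs and DMSO. Its log2 change was -0.70 ± 0.06 (adjusted p = 1.29e-08), -0.56 ± 0.06 (adjusted p = 1.17e-07) and -0.40 ± 0.06 (adjusted p = 5.84e-06) in the 3 treated groups in that sequence. GMNN, geminin, which holds CDT1 inactive after licensing, was at 36.8, 33.5 and 36.3 CPM in the DMSO libraries, 21.3, 21.2 and 22.6 with everolimus, 25.1, 23.5 and 24.4 under SGI-1027, and 24.4, 28.8 and 26.2 under the combination. Its treated libraries all lay below the DMSO libraries, and combination and SGI-1027 libraries overlapped. The log2 change of GMNN was -0.42 ± 0.06 (adjusted p = 1.47e-05) with the combination.

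CDT1, which recruits the MCM ring, was at 55.9, 48.7 and 49 CPM in the DMSO libraries, 37.8, 36.6 and 35.8 with everolimus, 42.5, 41.2 and 46 under SGI-1027, and 50.4, 51.6 and 53.4 under the combination. The combination libraries overlapped with those of DMSO, whereas both single drugs lay below. The log2 change was -0.48 ± 0.06 (adjusted p = 1.94e-06) for everolimus, -0.24 ± 0.06 (adjusted p = 0.00151) for SGI-1027, and 0.02 ± 0.06 (adjusted p = 0.793) when both were given, where the 95% interval was -0.10 to 0.14. ORC6, the smallest subunit of the same complex, had log2 changes of -0.32, -0.29 and -0.11 with everolimus, SGI-1027 and the combination, and the last did not pass the test (adjusted p = 0.166).

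**Figure D3:**
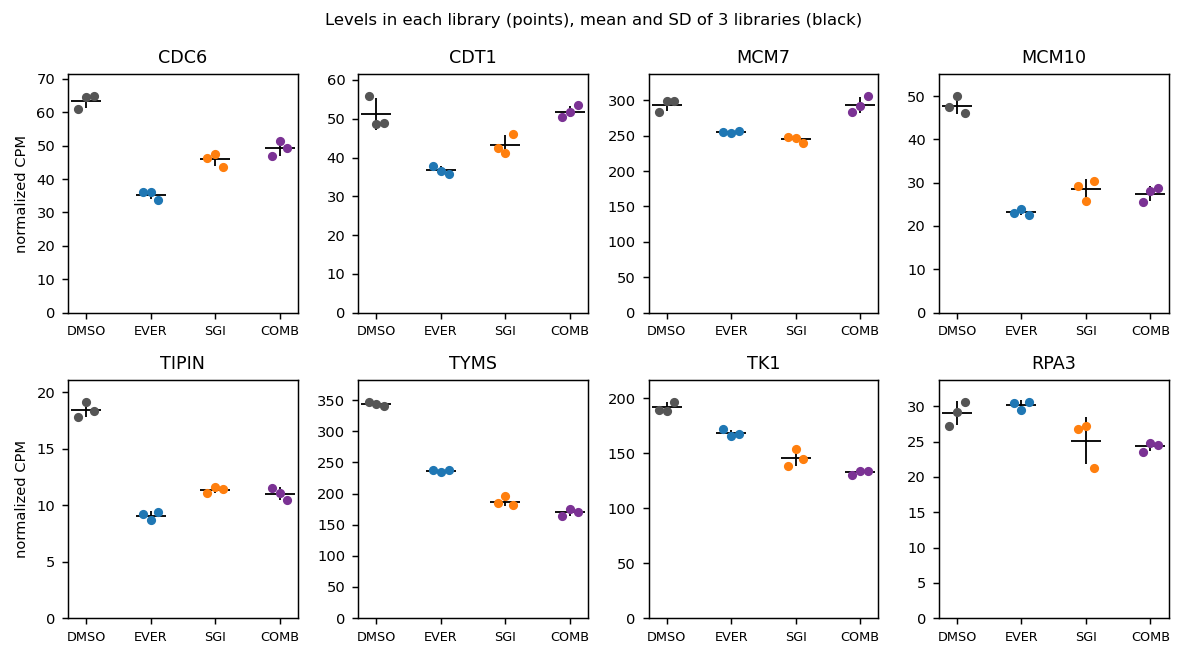
Normalized CPM (y axes, from 0) of 8 replication genes in each library (points) of the 4 groups (EVER is everolimus, SGI is SGI-1027 and COMB is both drugs); black marks are the mean and SD of 3 libraries. CDC6, MCM10 and TIPIN are lowest with everolimus, CDT1 and MCM7 overlap with DMSO under the combination, and TYMS and TK1 are lowest with the combination.

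The MCM2-7 genes, which encode the ring-shaped helicase itself, all fell with each single drug, with medians of -0.46 with everolimus and -0.35 with SGI-1027 on the log2 scale, and 4 of the 6 fell with the combination, where the median was -0.27. MCM3 was at 220.2, 227 and 229 CPM in the DMSO libraries, 150.4, 148 and 144 with everolimus, 161, 164 and 160.1 under SGI-1027, and 171, 179 and 170.3 under the combination. Each treated group lay below DMSO, and the combination lay above the everolimus libraries. The log2 change with the combination was -0.38 ± 0.04 (adjusted p = 4.76e-08) for MCM3, and -0.37 ± 0.04 (adjusted p = 3.52e-08) for MCM4. MCM6 was at 121, 135 and 140.4 CPM in the DMSO libraries, 92.3, 96.2 and 94.5 with everolimus, 112, 100.2 and 98.6 under SGI-1027, and 97, 97.7 and 102 under the combination. Its combination and SGI-1027 libraries overlapped, and its log2 change with the combination was -0.42 ± 0.05 (adjusted p = 2.56e-06), the deepest of the 6. MCM7 was at 283, 299 and 299 CPM in the DMSO libraries, 256, 253 and 256 with everolimus, 248, 247 and 240.2 under SGI-1027, and 283, 292 and 306 under the combination. Here the combination libraries overlapped with DMSO while both single drugs lay below it, and the log2 change was -0.20 ± 0.04 for everolimus, -0.26 ± 0.04 for SGI-1027, and 0.00094 ± 0.04 for both drugs (95% interval -0.08 to 0.08). MCM5 had a similar set of values, -0.29 ± 0.04, -0.19 ± 0.04 and -0.03 ± 0.04. MCM2 lay between, at -0.44 ± 0.04, -0.35 ± 0.04 and -0.17 ± 0.04. The 6 subunits assemble into 1 ring, and their log2 changes under the combination ranged from -0.42 to 0.00.

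Of the helicase activation genes, 6 of 6 were lower in each treated group, with medians of -0.59 with everolimus, -0.65 with SGI-1027, and -0.57 for both drugs. MCM10, which binds the helicase as origins fire, was at 47.4, 50.01 and 46.1 CPM in the DMSO libraries, 22.9, 23.8 and 22.6 with everolimus, 29.1, 25.8 and 30.3 under SGI-1027, and 25.4, 28.1 and 28.8 under the combination. Its everolimus libraries lay below every other library, and those of SGI-1027 and the combination overlapped. The log2 change was -1.05 ± 0.07 (adjusted p = 3.58e-10) for everolimus, -0.75 ± 0.06 (adjusted p = 1.37e-08) for SGI-1027, and -0.80 ± 0.06 (adjusted p = 4.22e-09) when both were given. GINS1 was at 50.6, 50.7 and 56.4 CPM in the DMSO libraries, 33.9, 31.2 and 32.1 with everolimus, 31.2, 31.5 and 28.8 under SGI-1027, and 32.6, 33.3 and 32.1 under the combination. Its 3 treated groups lay close together and all below DMSO, with log2 changes of -0.70 ± 0.06 (adjusted p = 1.18e-08), -0.79 ± 0.06 (adjusted p = 1.58e-09) and -0.69 ± 0.06 (adjusted p = 6.35e-09). GINS4 and GINS2, from the same complex, had log2 changes of -0.62 ± 0.06 and -0.51 ± 0.06 with the combination, GINS3 of -0.36 ± 0.07, and the helicase cofactor CDC45 of -0.32 ± 0.06.

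The polymerase and primase genes spanned a wide range of changes. The count of genes lower was 8 of 9 with each single drug, beside 29.2% of all tested genes with everolimus and 30.6% with SGI-1027. With the combination it was 4 of 9 (44.4%), not far from the 33.4% of all tested genes. The medians were -0.38, -0.30 and -0.14 with everolimus, SGI-1027 and the combination. POLD2, an accessory subunit of DNA polymerase delta, was at 231, 208 and 203 CPM in the DMSO libraries, 134, 138 and 140.4 with everolimus, 131, 132 and 153 under SGI-1027, and 129.6, 130.1 and 133 under the combination. All treated libraries lay below DMSO and the combination libraries lay below those of everolimus, with log2 changes of -0.64 ± 0.06 (adjusted p = 2.81e-08), -0.62 ± 0.06 (adjusted p = 2.32e-08) and -0.71 ± 0.06 (adjusted p = 3.28e-09). POLA1, the catalytic subunit of DNA polymerase alpha, was at 47.7, 49.9 and 48.6 CPM in the DMSO libraries, 33.5, 37.4 and 34.7 with everolimus, 35.7, 33.8 and 37.3 under SGI-1027, and 36.2, 33.8 and 33.9 under the combination. The treated groups overlapped with one another and lay below DMSO, and the log2 change with the combination was -0.49 ± 0.05 (adjusted p = 2.85e-07). POLE2 was at 8.99, 8.31 and 9.77 CPM in the DMSO libraries, 8.16, 9.23 and 7.86 with everolimus, 8.93, 9.92 and 9.13 under SGI-1027, and 9.09, 8.98 and 7.97 under the combination. Its 4 groups overlapped, and it was the only one of the 51 genes that passed the test in none of the 3 comparisons with DMSO, where the 95% intervals of the log2 change were -0.30 to 0.10, -0.15 to 0.25 and -0.25 to 0.15. The other delta subunits POLD1 and POLD3 had log2 changes of -0.41 ± 0.05 and -0.11 ± 0.05 with the combination, POLA2 of -0.21 ± 0.05, POLE, the catalytic subunit of polymerase epsilon, of -0.08 ± 0.05, and the primase subunits PRIM1 and PRIM2 of -0.04 ± 0.08 and -0.14 ± 0.06. Of these 6, POLD1 and POLA2 passed the test.

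The clamp and its loaders were lower in all 3 treated groups, 7 of 7 genes each time, with medians of -0.52, -0.51 and -0.38 in the same order. RFC5, a loader subunit, was at 46.4, 45.4 and 44.9 CPM in the DMSO libraries, 29.2, 29.7 and 28.6 with everolimus, 29.6, 27.3 and 28 under SGI-1027, and 31.1, 27.7 and 31.6 under the combination. The treated groups overlapped with each other and lay below DMSO, with log2 changes of -0.64 ± 0.06 (adjusted p = 2.74e-08), -0.69 ± 0.06 (adjusted p = 7.57e-09) and -0.60 ± 0.06 (adjusted p = 3.48e-08). DSCC1, part of an alternative loader that acts in sister chromatid cohesion, was at 23, 19.5 and 21.6 CPM in the DMSO libraries, 11.8, 15.9 and 11.3 with everolimus, 15.4, 14.3 and 12.7 under SGI-1027, and 14.3, 15.7 and 16.6 under the combination. Its treated libraries lay below DMSO but spread widely, and its log2 change with the combination was -0.46 ± 0.11 (adjusted p = 0.00113). PCNA, the clamp, had log2 changes of -0.38 ± 0.05, -0.41 ± 0.05 and -0.30 ± 0.05, and RFC1, RFC2, RFC3 and RFC4 lay between -0.64 and -0.28 in all 3 comparisons.

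RPA coats single-stranded DNA at the fork as a complex of 3 subunits. RPA1 was at 181, 193 and 188 CPM in the DMSO libraries, 145, 148 and 142 with everolimus, 135, 141 and 126 under SGI-1027, and 132, 133 and 131 under the combination. It was lower in all treated groups, with log2 changes of -0.37 ± 0.04 (adjusted p = 7.43e-07), -0.49 ± 0.04 (adjusted p = 1.64e-08) and -0.50 ± 0.04 (adjusted p = 7.60e-09). RPA3 was at 27.2, 29.2 and 30.6 CPM in the DMSO libraries, 30.5, 29.5 and 30.7 with everolimus, 26.9, 27.2 and 21.3 under SGI-1027, and 23.5, 24.9 and 24.6 under the combination. Its everolimus libraries overlapped with DMSO, and its combination libraries lay below both, with log2 changes of 0.06 ± 0.08 (adjusted p = 0.538), -0.21 ± 0.08 (adjusted p = 0.0256) and -0.26 ± 0.08 (adjusted p = 0.00782). RPA2 had log2 changes of -0.42 ± 0.05, -0.49 ± 0.05 and -0.38 ± 0.05.

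The 4 nuclease and ligase genes listed under Okazaki fragment processing were lower in each treated group, with medians of -0.50, -0.46 and -0.29. DNA2, a nuclease and helicase, was at 17.5, 19 and 16.6 CPM in the DMSO libraries, 12.9, 12.1 and 12.9 with everolimus, 13.4, 11.5 and 12.2 under SGI-1027, and 13.3, 14.3 and 14.9 under the combination. LIG1, the ligase that seals the fragments, was at 49, 45.7 and 44.4 CPM in the DMSO libraries, 42.4, 38.4 and 39.98 with everolimus, 38.6, 35.7 and 38.6 under SGI-1027, and 37.3, 37.9 and 37.4 under the combination. For both genes every treated library lay below the DMSO libraries, with log2 changes under the combination of -0.32 ± 0.08 (adjusted p = 0.00138) for DNA2 and -0.30 ± 0.05 (adjusted p = 7.79e-05) for LIG1. The flap nuclease FEN1 had log2 changes of -0.54 ± 0.05, -0.51 ± 0.05 and -0.28 ± 0.05, and the exonuclease EXO1 of -0.51 ± 0.06, -0.40 ± 0.06 and -0.28 ± 0.06.

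Nucleotide supply had the lowest median of the 11 sub-groups under the combination. All 4 genes were lower in each treated group, and the median log2 change was -0.51 for everolimus, -0.74 for SGI-1027, and -0.71 for both drugs. TYMS, which makes thymidylate, was at 348, 343 and 341 CPM in the DMSO libraries, 238, 234 and 237 with everolimus, 184, 196 and 181 under SGI-1027, and 165, 176 and 171 under the combination. The groups did not overlap and fell in the order DMSO, everolimus, SGI-1027, combination. The log2 change was -0.54 ± 0.04 (adjusted p = 1.55e-09), -0.88 ± 0.04 (adjusted p = 1.83e-12) and -1.01 ± 0.04 (adjusted p = 1.27e-13) in the 3 treated groups. RRM2 was at 256, 269 and 284 CPM in the DMSO libraries, 181, 184 and 175 with everolimus, 149, 155 and 155 under SGI-1027, and 151, 157 and 158 under the combination. SGI-1027 and combination libraries overlapped, and both lay below everolimus, with log2 changes of -0.58 ± 0.04 (adjusted p = 1.84e-09), -0.82 ± 0.04 (adjusted p = 1.31e-11) and -0.80 ± 0.04 (adjusted p = 1.08e-11). TK1, which salvages thymidine, was at 189, 189 and 197 CPM in the DMSO libraries, 172, 166 and 167 with everolimus, 138, 154 and 145 under SGI-1027, and 130.3, 133 and 134 under the combination. It followed the order of TYMS on a smaller scale, with log2 changes of -0.19 ± 0.04, -0.39 ± 0.04 and -0.53 ± 0.04. RRM1, the large subunit of ribonucleotide reductase, had log2 changes of -0.48 ± 0.05, -0.66 ± 0.06 and -0.62 ± 0.06.

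Among fork protection genes, TIPIN, the partner of TIMELESS, was at 17.8, 19.2 and 18.4 CPM in the DMSO libraries, 9.24, 8.65 and 9.35 with everolimus, 11, 11.6 and 11.4 under SGI-1027, and 11.5, 11.1 and 10.4 under the combination. All treated libraries were well below DMSO and those of everolimus were the lowest, with log2 changes of -1.02 ± 0.07 (adjusted p = 1.34e-09), -0.70 ± 0.07 (adjusted p = 8.70e-08) and -0.74 ± 0.07 (adjusted p = 3.11e-08). CLSPN, claspin, a checkpoint mediator at the fork, had log2 changes of -0.70 ± 0.05, -0.54 ± 0.05 and -0.46 ± 0.05. CHAF1B, a subunit of the chromatin assembly factor that places histones on new DNA, was at 46.8, 43.8 and 49.4 CPM in the DMSO libraries, 33.3, 31.4 and 29.9 with everolimus, 32.4, 33.7 and 36 under SGI-1027, and 36.6, 36.3 and 35.6 under the combination. Its SGI-1027 libraries overlapped with both other treated groups, and its log2 change was -0.57 ± 0.06 (adjusted p = 2.13e-07), -0.46 ± 0.06 (adjusted p = 2.16e-06) and -0.37 ± 0.06 (adjusted p = 2.11e-05). CHAF1A, of the same factor, had log2 changes of -0.57 ± 0.05, -0.34 ± 0.05 and -0.19 ± 0.05, and SLBP, which binds the stem-loop of histone mRNA, of -0.46 ± 0.04, -0.30 ± 0.04 and -0.31 ± 0.04. UNG, which removes uracil from DNA, was at 45.1, 44.6 and 44.7 CPM in the DMSO libraries, 31.2, 31.4 and 31.5 with everolimus, 33.7, 35 and 32.4 under SGI-1027, and 35, 35.7 and 35.5 under the combination. Its groups were tight, and the log2 change was -0.51 ± 0.05 (adjusted p = 4.57e-08), -0.41 ± 0.05 (adjusted p = 5.48e-07) and -0.34 ± 0.05 (adjusted p = 4.38e-06). WDR76 had log2 changes of -0.62 ± 0.06, -0.42 ± 0.06 and -0.31 ± 0.06.

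The combination was next set against each single drug, which asks what the second compound adds. Against everolimus, 26 of the 51 genes were higher and 5 lower, beside 20.1% and 19.2% of all tested genes. The 26 included 5 of 5 licensing genes, 5 of 6 MCM2-7 genes, 3 of 3 chromatin genes, and both genes of fork protection and of S phase repair. In contrast, 2 of 6 activation genes, 4 of 9 polymerase and primase genes, 1 of 7 clamp genes and 2 of 4 Okazaki genes were higher. The largest differences were those of CDT1 (0.50 ± 0.06, adjusted p = 2.17e-06), CDC6 (0.48 ± 0.05, adjusted p = 8.63e-07) and CHAF1A (0.38 ± 0.05, adjusted p = 1.06e-05). The 5 genes lower were TYMS (-0.47 ± 0.04, adjusted p = 1.54e-08), TK1 (-0.35 ± 0.04, adjusted p = 2.25e-06), RPA3 (-0.31 ± 0.08, adjusted p = 0.00349), RRM2 (-0.21 ± 0.04, adjusted p = 4.95e-04) and RPA1 (-0.13 ± 0.04, adjusted p = 0.0183). Thus 3 of 4 nucleotide supply genes and 2 of 3 RPA genes were called lower, whereas most called members were higher. RRM1, also of nucleotide supply, lay below 0 (-0.14) but was not called. A further list of 22 nucleotide supply genes did not share this direction, with 8 (36.4%) higher and 5 (22.7%) lower. Differences between sub-groups were not tested. Calls lost without 1 library were those of RPA1 (adjusted p up to 0.0763, without everolimus replicate 2 or any 1 combination library), ORC6 (up to 0.119, without everolimus replicate 1 or 2 or combination replicate 2), PRIM2 (up to 0.0608, without everolimus replicate 1 or combination replicate 3), POLA2 (0.0545, without combination replicate 2) and CHAF1B (0.0701, without everolimus replicate 3).

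Against SGI-1027, the differences were smaller. The combination was higher for 8 genes and lower for 2, beside 9.4% and 10.2% of all tested genes, and 21 of the 51 genes were higher at an unadjusted p under 0.05, as were 15.7% of all tested genes. The 8 genes were CDT1, MCM2, MCM4, MCM5, MCM7, PRIM2, FEN1 and CHAF1A, and the largest differences were those of MCM7 (0.26 ± 0.04, adjusted p = 5.63e-05) and CDT1 (0.26 ± 0.06, adjusted p = 0.00362). The 2 genes lower were TK1 (-0.14 ± 0.04, adjusted p = 0.0251) and TYMS (-0.14 ± 0.04, adjusted p = 0.0177). Without SGI-1027 replicate 2 or combination replicate 1 the count of genes lower was 0, without combination replicate 2 or 3 it was 1, and without SGI-1027 replicate 2 or combination replicate 2 the count of genes higher was 5. It was 12 without DMSO replicate 1. TK1 and TYMS had an adjusted p of up to 0.144 and 0.104 in these fits. PRIM2 and CHAF1A each lost the call without any 1 of 9 libraries, all but DMSO replicates 1 and 3 and, for PRIM2, combination replicate 1 or, for CHAF1A, SGI-1027 replicate 3, with an adjusted p of up to 0.18 and 0.207. MCM4 (up to 0.0818) lost it without SGI-1027 replicate 1 or 2 or combination replicate 2, and MCM5 (up to 0.0656) without SGI-1027 replicate 1 or combination replicate 3.

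Between the single drugs, SGI-1027 gave higher values than everolimus for 11 genes and lower values for 6, beside 13% and 9.51% of all tested genes. The 4 nucleotide supply genes were all among the 6, with TYMS at -0.34 ± 0.04 (adjusted p = 3.57e-06), RRM2 at -0.24 ± 0.04 (adjusted p = 4.44e-04), TK1 at -0.21 ± 0.04 (adjusted p = 0.00119) and RRM1 at -0.17 ± 0.06 (adjusted p = 0.0325). The others were GINS4 (-0.21 ± 0.06) and RPA3 (-0.27 ± 0.08). In the further list of 22 nucleotide supply genes, 5 (22.7%) were lower with SGI-1027 than with everolimus and 4 (18.2%) higher. The largest of the 11 were CDC6 (0.38 ± 0.05, adjusted p = 4.07e-05), TIPIN (0.32 ± 0.07, adjusted p = 0.0038) and MCM10 (0.30 ± 0.07, adjusted p = 0.00336). The count of 6 was 3 without everolimus replicate 1 and 3 without SGI-1027 replicate 3, in each case without the calls of RRM1, GINS4 and RPA3. These calls were also lost without everolimus replicate 2 for RRM1 (adjusted p up to 0.132) and GINS4 (up to 0.101), without SGI-1027 replicate 2 for GINS4, and without everolimus replicate 3 for RPA3 (up to 0.0886). Among genes called higher, CLSPN (log2 difference 0.16 ± 0.05, adjusted p up to 0.193) lost its call without any 1 everolimus or SGI-1027 library and without combination replicate 1 or 2. MCM3 (up to 0.0801) lost it without everolimus replicate 3 or SGI-1027 replicate 2, MCM4 (up to 0.101) without everolimus replicate 1 or 2 or SGI-1027 replicate 3, and WDR76 (up to 0.138) without replicate 1 or 3 of either group.

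**Figure D4:**
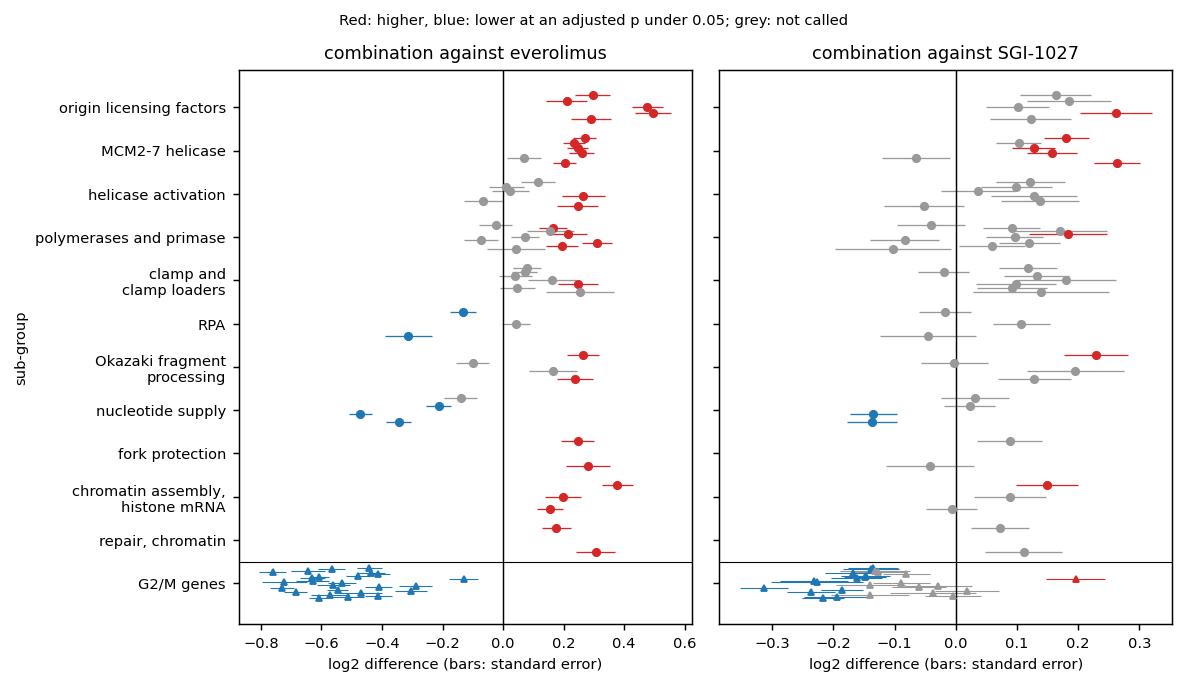
Log2 difference (x axes; bars are standard errors) between the combination and everolimus (left) and between the combination and SGI-1027 (right), with 1 point per gene in rows by sub-group and the 25 G2/M genes in the last row (triangles); red is higher and blue lower at an adjusted p under 0.05. On the left most sub-groups lie right of 0, nucleotide supply lies left of it, and so do all 25 G2/M genes.

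Departure from additivity was measured as the log2 change with the combination minus the sum of the log2 changes with the single drugs, the interaction term of the fit. A value of 0 means that each drug multiplied the level by the same factor with and without the other. The interaction was positive for 48 of the 51 genes and negative for 0, beside 23.6% and 22.1% of all tested genes, with a median of 0.58 beside -0.0082 over all genes. An unadjusted p under 0.05, DESeq2 and limma also gave 0 genes negative. The count was 47 without DMSO replicate 1 and 48 without SGI-1027 replicate 3. With upper-quartile factors the members' count was 47 and the split over all genes 18.2% positive and 27.9% negative. The sum of the single-drug changes would have put the median member at 52.7% of DMSO, and the combination stood at 77.5%. Its mean lay above the means of both single drugs for 35 genes, between them for 9 and below both for 7.

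The 6 largest interactions were those of MCM10 (0.996 ± 0.09, adjusted p = 1.43e-07), TIPIN (0.98 ± 0.10, adjusted p = 4.64e-07), CDC6 (0.95 ± 0.07, adjusted p = 1.64e-08), ORC1 (0.86 ± 0.08, adjusted p = 1.71e-07), DSCC1 (0.85 ± 0.16, adjusted p = 2.29e-04) and GMNN (0.83 ± 0.09, adjusted p = 1.21e-06). For CDC6 the product of both single-drug factors would have given 25.5 CPM, and the combination mean was 49.2 ± 2.24 CPM (SD, n = 3), above 35.3 ± 1.37 with everolimus and 45.9 ± 1.91 with SGI-1027. For MCM10 the product would have given 13.7 CPM, and the mean was 27.4 ± 1.78 CPM. By sub-group, the median interaction was 0.89 for fork protection, 0.83 for licensing, 0.72 for helicase activation, 0.66 for Okazaki processing, 0.66 for S phase repair, 0.65 for chromatin assembly, 0.62 for the clamp and its loaders, 0.54 for MCM2-7, 0.47 for polymerases and primase, 0.46 for nucleotide supply and 0.35 for RPA.

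The 3 genes whose interaction did not pass the test were POLE2 (-0.01 ± 0.13, 95% interval -0.29 to 0.28), RPA3 (-0.10 ± 0.11, -0.33 to 0.13) and TK1 (0.05 ± 0.06, -0.07 to 0.17). TK1 differed from POLE2 in that it fell in each comparison with DMSO. Its combination level of 132 ± 1.92 CPM was close to the 128 CPM that both factors together would give. TYMS was lower with the combination than with either drug and had an interaction of 0.41 ± 0.05 (adjusted p = 8.36e-06), with 170.4 ± 5.7 CPM against 129 CPM from the product. On the linear scale, where the falls in CPM are added, 48 genes were above the sum by over 2 standard errors, 0 were below and 3 were within, beside 29.8% above and 24.6% below over all tested genes. The call of LIG1 (interaction 0.20 ± 0.08) was lost without DMSO replicate 1, everolimus replicate 2 or 3, SGI-1027 replicate 2 or any 1 combination library, with an adjusted p of up to 0.107.

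**Figure D5:**
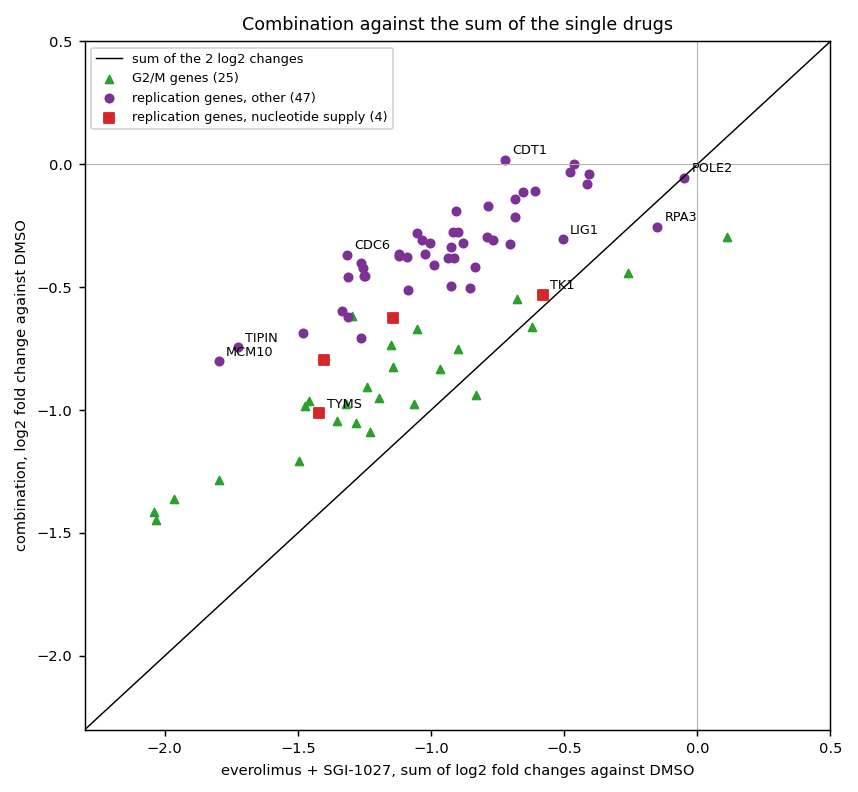
Log2 fold change with the combination (y axis) against the sum of the log2 fold changes with everolimus and SGI-1027 (x axis) for the 51 replication genes (circles, and red squares for nucleotide supply) and 25 G2/M genes (triangles); the line marks equality, which is multiplicative additivity. All but 3 of the replication genes passed the test of the distance to the line, and the 48 lie above it.

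Genes of the next cell cycle stage gave other values. Of 25 G2/M genes, which act in mitotic entry and spindle assembly, 22 were lower with everolimus, 24 under SGI-1027 and 25 under the combination. The median log2 changes were -0.45, -0.81 and -0.95, and 29.2%, 30.6% and 33.4% of all tested genes were lower. All 25 G2/M genes were lower with the combination than with everolimus (median -0.55), beside 19.2% of all tested genes. This is the comparison in which 26 replication genes were higher. Against SGI-1027, 13 G2/M genes were lower and 1 higher with the combination, beside 10.2% and 9.4% of all tested genes. The mitotic kinase AURKA had log2 changes of -0.79 ± 0.04, -1.25 ± 0.04 and -1.42 ± 0.04, and CDC20, an activator of the anaphase-promoting complex, of -0.75 ± 0.03, -1.21 ± 0.03 and -1.36 ± 0.03. The interaction was positive for 16 (64%) and negative for 2 (8%) of the 25, beside 23.6% and 22.1% of all tested genes. Mostly positive interactions were thus not particular to the replication genes. In sum over its members, the G2/M list stood at 4105 to 4217 CPM with everolimus and 2849.7 to 2897 CPM with the combination, whereas the 51 replication genes stood at 3606 to 3615 and 3757 to 3863 CPM. The difference between the 2 lists was not tested.

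Regulators of S phase entry are given beside all tested genes, of which 29.2% were lower and 27.2% higher with everolimus and 33.4% and 32.8% with the combination. Of 18 E2F and RB family regulators, 12 (66.7%) were lower and 2 (11.1%) higher with everolimus, and 9 (50%) were lower and 3 (16.7%) higher with the combination. E2F1, an activator of replication genes, was at 51.8 ± 3.03 CPM in DMSO, 36.2 ± 0.509 with everolimus, 44.9 ± 1.03 with SGI-1027, and 47.5 ± 2.2 for both drugs. It had log2 changes of -0.51 ± 0.05 (adjusted p = 1.81e-07), -0.21 ± 0.05 (adjusted p = 0.00211) and -0.12 ± 0.05 (adjusted p = 0.0416), with an interaction of 0.60 ± 0.07 (adjusted p = 4.10e-06). E2F7, a repressor of the family, had log2 changes of -0.27 ± 0.06, 0.07 ± 0.06 and 0.83 ± 0.06, and MYBL2, which drives genes of late S phase and G2, of -0.95 ± 0.06, -0.94 ± 0.06 and -1.24 ± 0.06. Of 12 S phase kinases, cyclins and inhibitors, 8 (66.7%) were lower and 2 (16.7%) higher with everolimus, and 7 (58.3%) were lower and 3 (25%) higher with the combination. CCNE2, cyclin E2, was lower with everolimus (-0.25 ± 0.06, adjusted p = 0.00245), and its log2 difference with the combination was -0.02 ± 0.06. CDKN1A, the kinase inhibitor p21, was higher with SGI-1027 (0.63 ± 0.07, adjusted p = 1.79e-07) and with the combination (0.74 ± 0.07, adjusted p = 1.75e-08), and its log2 difference with everolimus was -0.0029 ± 0.07. CDKN1C, the kinase inhibitor p57, had the largest change of these 12 genes in each treated group and is named here after its values were seen. It was at 4.47 ± 0.583 CPM in DMSO, 16.6 ± 0.226 with everolimus, 14.9 ± 1.45 with SGI-1027, and 16.4 ± 0.397 for both drugs, and rose in all 3 by log2 values of 1.89 ± 0.09 (adjusted p = 2.69e-11), 1.73 ± 0.10 (adjusted p = 3.75e-11) and 1.87 ± 0.09 (adjusted p = 7.34e-12).

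Replication genes outside the 51 were counted from further lists. Of all tested genes, 29.2% were lower and 27.2% higher with everolimus, 30.6% and 32% with SGI-1027, and 33.4% and 32.8% with the combination. The interaction was positive for 23.6% of all tested genes and negative for 22.1%. Of 29 further fork and licensing genes, 18 were lower and 4 higher with everolimus, 17 and 3 with SGI-1027, and 15 and 5 with the combination, and the interaction was positive for 18 and negative for 2. TIMELESS, the partner of TIPIN, had log2 changes of -0.52 ± 0.04, -0.54 ± 0.04 and -0.57 ± 0.04. Of 22 further nucleotide supply genes, 16 were lower and 1 higher with everolimus, 18 and 2 with SGI-1027, and 16 and 2 with the combination. SAMHD1, which breaks down deoxynucleotides, was higher with SGI-1027 (1.24 ± 0.07, adjusted p = 7.08e-11) and with the combination (1.60 ± 0.07, adjusted p = 1.30e-12), and had log2 changes of -0.26 ± 0.07 with everolimus. Of 14 further chromatin replication genes, 10, 10 and 11 were lower and 1, 2 and 2 higher in the 3 groups. DNMT1, the maintenance methyltransferase that works behind the fork, had log2 changes of -0.67 ± 0.04 (adjusted p = 1.13e-10), -0.61 ± 0.04 (adjusted p = 2.04e-10) and -0.62 ± 0.04 (adjusted p = 1.11e-10), with an interaction of 0.66 ± 0.05 (adjusted p = 2.94e-08). Of 21 replication-dependent histone genes, 10 passed the filter. Of these, 5 (50%) were higher with everolimus, 5 (50%) under SGI-1027 and 3 (30%) under the combination, where 2 (20%) were lower. Under the combination neither share was above that of all tested genes. The interaction was negative for 6 of the 10. In sum the 21 genes stood at 19.4 to 24.2 CPM in DMSO and 29.5 to 37.3 CPM in the treated libraries. H2BC12 is the most abundant of them, at 10.8 ± 0.815 CPM in DMSO and 19.4 ± 0.663 with the combination. Without it, the other 20 genes summed to 8.77 to 12.5 CPM in DMSO, 16.9 to 18.6 with everolimus and 16.6 to 17.1 with SGI-1027, whereas the combination libraries, at 10.9 to 12.6 CPM, overlapped with DMSO. Most messages of these genes lack a poly(A) tail.

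The reads of some members can be divided with other genes. In the GENCODE annotation, exons of FEN1, GINS2, MCM2, MCM7, PRIM1, RFC4, RPA3 and TYMS overlap those of another tested protein-coding gene, on the opposite strand in each case and for FEN1 also on the same strand. TYMS overlaps ENOSF1 and RPA3 overlaps UMAD1 in this way. Copies named after a member exist for 9 of the 51, among them PCNA, RRM2, RPA2 and TYMS. How the counting treated strand and shared reads is not given in the sources used here, and its part in these values was not tested.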

How the data were processed

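RNA sequencing of 12 libraries of 786-O cells, 3 in each of 4 groups, was analysed from 2 tables. The authors deposited raw, unnormalized counts for each gene symbol and a second table of FPKM values that the authors computed from the counts by gene length and library total. The aligner, the counting program and the annotation are not given in the sources used here. The submitters' processing notes name the mouse builds GRCm38 and mm10, although the genes carry human symbols, so no coordinates were taken from the tables. Extraction and library kits also differ between the records (RNeasy, SMARTer) and the study's methods (TRIzol, TruSeq Stranded mRNA).

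The test was run in edgeR 4.0.16 under R 4.3.3. From 17085 genes, filterByExpr kept 12841, which were tested, with TMM normalization and 1 quasi-likelihood fit of all 12 libraries (prior count 0.125 for fold changes). Contrasts were each treatment against DMSO, the treatments against each other, and the interaction. P-values were adjusted by Benjamini-Hochberg over the 12841 genes, and calls were made under 0.05. Libraries held 37046231 to 41516976 counts, and members between 301 and 18135 counts in a library. Precision rested on the spread of 3 libraries and, for members with few counts such as POLE2, also on counting noise. Libraries with the same replicate number did not deviate together (18 pairs across groups, r from -0.18 to 0.036, 0 over 0.1), and numbers were not used to pair them. For the 36 pairs with different numbers, r ran from -0.14 to 0.23 and 2 were over 0.1. The highest was that of DMSO replicate 1 with SGI-1027 replicate 3, which a block by replicate number does not take up. The code was also run on simulated counts with log2 changes of 1 in the combination only, larger than nearly all changes of the members. That run does not measure how smaller changes are recovered.

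The members and the further gene lists were chosen with earlier results of these data known. Values per library were printed for the 2 members of each sub-group with the largest change under the combination (1 in sub-groups of 2 or 3), for the 6 largest interactions and, chosen after their values were seen, for CDT1, MCM7, POLE2, RPA3 and TK1. From the further lists, E2F1, CCNE2, CDKN1A, DNMT1 and up to 3 genes per list with the smallest p under the combination could be named. Promoter sequences came from RefSeq on GRCh38.p14, and exon overlaps and copies were looked up by symbol in GENCODE annotation. Alternatives were DESeq2 1.42.0, upper-quartile factors, library totals only, 2 other filters on low counts, a replicate block, fits of the contrasted groups only, limma-trend (limma 3.58.1) on log2(FPKM + 1) and log2(FPKM + 0.1), a minimum log2 change of 1, a linear scale for additivity, and leaving out each library. Figures were drawn with matplotlib.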

Additional observations from a re-analysis of the deposited data

Results flagged for a closer look

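The response to SGI-1027 differed with and without everolimus for 48 of the 51 replication genes, by the interaction term of edgeR's quasi-likelihood fit at an adjusted p under 0.05, and was higher with everolimus present in each of the 48. Over all tested genes, the interaction was positive for 23.6% and negative for 22.1%. Other lists were mostly positive too. Of 25 G2/M genes, 16 were positive and 2 negative, and of 22 further nucleotide supply genes, 18 were positive and 1 negative. The term is the same when read as the response to everolimus with and without SGI-1027. The 6 largest log2 differences between the 2 responses were 0.996 for MCM10, 0.98 for TIPIN, 0.95 for CDC6, 0.86 for ORC1, 0.85 for DSCC1 and 0.83 for GMNN. If the everolimus group received 10 µM, as the treatment protocol states, dose and interaction cannot be told apart. What part cell death under the combination had in these values was not tested.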

How the results depend on the processing

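Of 357 gene-level results (51 genes in 7 contrasts), 42 changed their call under at least 1 alternative and 0 reversed. A minimum log2 change of 1 with an adjusted or an unadjusted p left 2 genes lower for everolimus, 0 for SGI-1027 and 1 for both, and 0 genes in either direction in the comparisons of treatments with each other and in the interaction. The count higher in the combination than with SGI-1027 (8) was 13 with library totals only, and with limma-trend 14 at a pseudocount of 1 and 13 at 0.1 on FPKM, and the count lower (2) was 0 when only the contrasted groups were fitted, and the cause was not tested. With 1 library left out, this count lower ranged from 0 to 2 and the count higher from 5 to 12, the count lower with SGI-1027 than with everolimus (6) ranged from 3 to 7, and the count with a positive interaction was 47 or 48. With a replicate block, the counts were 49, 50 and 42 lower against DMSO and 48 positive interactions, and the count higher in the combination than with SGI-1027 was 6, without PRIM2 and CHAF1A. The block changed no other call, and same-numbered libraries share only a number. Fits of the contrasted groups only cannot give an interaction. The table of FPKM holds no independent measurement, since it was computed from the counts.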
